A study of Mus musculus with 4 samples.

Results

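The Iroquois homeobox family, Irx1 to Irx6, was followed in whole mammary gland of young mice that lack the matrix metalloproteinase Mt2-mmp. Its members were taken as every probe set annotated to exactly 1 of the 6 Irx symbols. That gave 6 probe sets of 45141 on the array, 1 for each gene, and 0 further probe sets named an Irx gene together with another gene. The family was chosen by the measured genotype difference of Irx3, so the knockout and wild-type values of its members are given as a description, without a test.

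Intact inguinal mammary glands of postnatal day 10 were profiled on 4 Affymetrix mouse arrays, with 200 ng of total RNA entering each labelling reaction. The knockout group was 2 arrays from Mt2-mmp(-/-) mice, which lack the gene in every tissue, and the control group was 2 arrays from Mt2-mmp(+/+) littermates, both on a congenic C57Bl/6J background. The labels call the arrays of a genotype biological replicates, but do not say whether an array holds 1 mouse or several. The spread between arrays may therefore be partly technical. The sex of the mice is also not given by the labels. Mt2-mmp is the older name of Mmp15, a membrane-anchored protease and 0 probe sets carried that symbol, which leaves the genotype labels without a check on the targeted gene.

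Iroquois proteins are transcription factors with a homeodomain of the TALE class, which has an extended loop, and a short Iro box. In mouse and human the 6 genes lie in 2 clusters that arose by duplication, Irx3, Irx5 and Irx6 on mouse chromosome 8 and Irx1, Irx2 and Irx4 on mouse chromosome 13. They are known for patterning of the limb, heart, nervous system and lung. In human adipocyte precursors IRX3 and IRX5 repress thermogenic genes, and loss of Irx3 in mice increases energy expenditure and browning of white fat. IRX2 has been described in the ductal and lobular epithelium of human breast.

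All values are the authors' RMA log2 expression values, in which a difference of 1 is a doubling, and differences are knockout minus wild type. Pairs of values follow the replicate numbers, 1 and then 2. The 4 arrays had medians between 5.20 and 5.22 and correlated at 0.995 to 0.997 over probe sets. Nonspecific control probe sets, which match no mouse gene, had array medians of 3.26 to 3.28, and the 95th percentile of their means, 4.52, served as a mark for dim signal. Irx1, Irx2, Irx3 and Irx5 lay above that mark, and the 2 others, Irx4 and Irx6, below it. For the labelled tissue, 13 of 14 measured luminal and 11 of 11 measured basal epithelial markers were above the mark, the exception being Esr1. Epidermis and hair follicle markers had mean log2 values of 6.98 in knockout 1 and 4.67 in knockout 2, against 4.68 in wild type 1 and 6.81 in wild type 2, so this signal split each genotype.

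Irx3 showed the largest difference of the family and carries the description below, so the bases before its transcription start are shown, beside those of Crnde, the long noncoding RNA gene between Irx3 and Irx5, and of Irx2, the member of the chromosome 13 cluster with the largest difference. The 3 windows hold the 250 bases before the start in RefSeq annotation of GRCm38.p6, written 5′ to 3′ on the strand of the gene, with each CpG dinucleotide in capitals. They lie at chr8:91801655-91801904 on the minus strand for Irx3, chr8:92356121-92356370 on the minus strand for Crnde and chr13:72628570-72628819 on the plus strand for Irx2. Windows matched 3 of the 6 family members, Irx2, Irx3 and Irx4.
Irx3: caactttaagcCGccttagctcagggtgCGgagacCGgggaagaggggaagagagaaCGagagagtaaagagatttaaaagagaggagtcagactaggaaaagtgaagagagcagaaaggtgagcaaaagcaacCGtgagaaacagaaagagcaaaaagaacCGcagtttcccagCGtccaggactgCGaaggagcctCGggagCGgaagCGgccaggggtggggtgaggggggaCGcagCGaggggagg
Crnde: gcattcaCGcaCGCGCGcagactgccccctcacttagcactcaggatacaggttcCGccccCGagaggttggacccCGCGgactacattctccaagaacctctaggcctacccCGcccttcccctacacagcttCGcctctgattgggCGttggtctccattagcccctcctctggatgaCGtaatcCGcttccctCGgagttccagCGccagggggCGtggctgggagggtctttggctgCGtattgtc
Irx2: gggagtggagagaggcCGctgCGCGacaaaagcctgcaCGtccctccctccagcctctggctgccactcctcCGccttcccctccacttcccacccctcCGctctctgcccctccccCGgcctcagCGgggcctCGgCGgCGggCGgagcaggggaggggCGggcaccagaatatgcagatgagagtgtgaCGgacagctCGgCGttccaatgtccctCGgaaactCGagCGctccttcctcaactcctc

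The windows held more CpGs than the median window. Irx3 had 13 CpGs, Crnde 17, Irx2 19 and Irx4 22, against a median of 6 over all 32851 promoter windows. Of all windows, 68.5% had fewer CpGs than Irx3, 76.5% fewer than Crnde, 80.3% fewer than Irx2 and 85.2% fewer than Irx4. Their GC content was 56.0% for Irx3, 62.0% for Crnde, 68.4% for Irx2 and 68.8% for Irx4, against a median of 52.4%. The Iroquois binding consensus ACANNTGT, searched on both strands, was in none of the 4 windows and in 6.31% of all windows. The GC box GGGCGG had 2 matches each in Crnde, Irx2 and Irx4 and 0 in Irx3, and 32.7% of all windows held it. The CCAAT letters had 1 match each in Crnde and Irx2, with 33.8% of all windows holding them, and TATAAA had 0 matches in the 4 windows, with 12.4% of all windows holding it. In these 4 windows 0 matches of different motifs shared bases.

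In the chromosome 8 cluster, Irx3 and Irx5 lay lower in knockouts. Irx3, a factor of heart conduction and limb patterning in mice, had log2 values of 7.30 and 7.39 in knockouts, against 8.21 and 8.13 in wild types. The genotypes did not overlap, and the gap between the higher knockout and the lower wild-type array was 0.75. The knockout mean was 7.35 ± 0.057 and the wild-type mean 8.17 ± 0.054 (SD, n = 2 arrays each), a difference of -0.82 (SE 0.073) or 1.77-fold lower in knockouts. Of the 45037 probe sets that are not array controls, 42 had a difference as low as that of Irx3 or lower, Irx3 included.

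Irx5, which shapes cardiac repolarization in mice and is mutated in a human craniofacial syndrome, had log2 values of 6.73 and 6.84 in knockouts, against 7.47 and 7.31 in wild types. Both knockout arrays were below both wild-type arrays, with a gap of 0.47. The means were 6.79 ± 0.080 in knockouts and 7.39 ± 0.115 in wild types (SD, n = 2 arrays each), a difference of -0.60 (SE 0.089) or 1.52-fold lower in knockouts. Irx3 and Irx5 are textbook partners with overlapping roles. The 4 arrays had the same order for both, with knockout 1 lowest and wild type 1 highest. Among the genes nearest to Irx3, given below, Ldb3, Stfa2l1 and Apoc2 had that order too, and Hpd and Mgst2 did not. These genes were selected for their likeness to Irx3 on the same arrays, which favours a shared order. The share of all genes with this order is not given here, so how particular it is to the pair was not tested.

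Irx6, known in mice from retinal bipolar cells, had log2 values of 4.14 and 4.19 in knockouts, against 4.10 and 4.17 in wild types. Its arrays overlapped, and the difference was 0.03 (SE 0.071). Since its mean lay below the mark for dim signal, these values do not show whether Irx6 RNA differed.

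In the chromosome 13 cluster the values lay closer together. Irx2 had log2 values of 6.94 and 6.78 in knockouts, against 7.05 and 7.30 in wild types. The genotypes did not overlap, but the gap of 0.12 was smaller than the distance of 0.24 between the wild-type arrays. Its means were 6.86 ± 0.108 in knockouts and 7.18 ± 0.171 in wild types (SD, n = 2 arrays each), a difference of -0.32 (SE 0.109) or 1.24-fold lower in knockouts.

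Irx1, a factor of lung and digit development, had log2 values of 6.29 and 6.28 in knockouts, against 6.46 and 6.34 in wild types. The knockout arrays were below the wild-type arrays by a gap of 0.05, and the difference was -0.11 (SE 0.075). Irx4, a regulator of the ventricular gene programme in the heart, had 4.16 and 4.01 in knockouts, against 4.06 and 4.22 in wild types. The arrays of Irx4 overlapped between genotypes at dim signal, with a difference of -0.06 (SE 0.093).

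**Figure D1:**
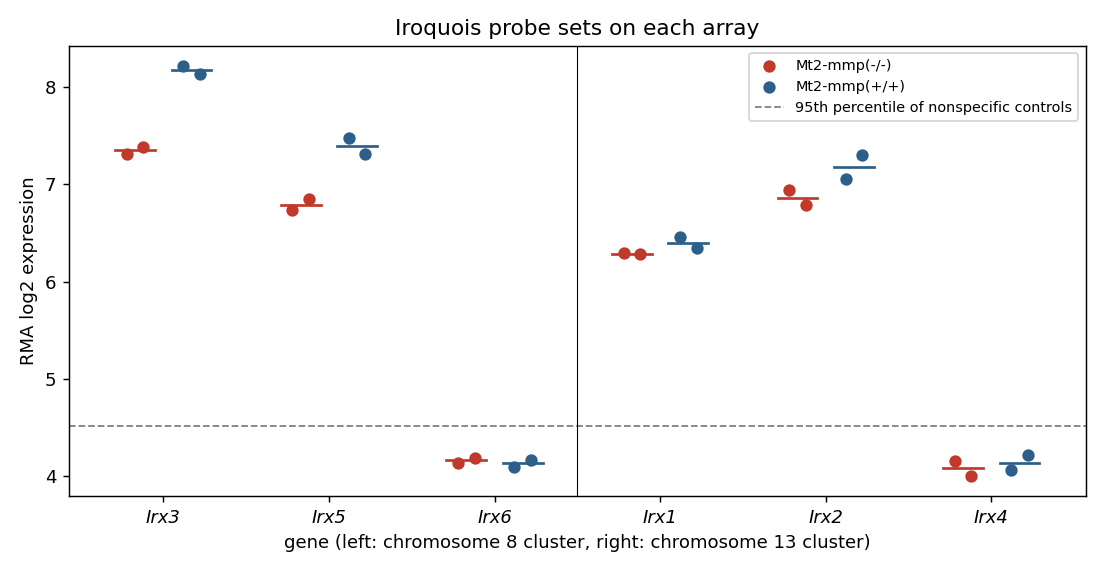
RMA log2 expression (vertical axis) of the 6 Iroquois probe sets on each array, knockout (red) left of wild type (blue), with a bar at each mean of 2 arrays and a dashed line at 4.52, the 95th percentile of nonspecific controls. Irx3 and Irx5 show a gap of 0.75 and 0.47 between the genotypes, while Irx4 and Irx6 overlap below the dashed line; heights of different genes cannot be compared, because each probe set has its own affinity.

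By limma's moderated test over all 45037 probe sets with Benjamini-Hochberg adjustment, 2 probe sets passed an adjusted p of 0.05 (0.00444%), both lower in knockouts, and 0 of the 6 Irx probe sets were among them. At an unadjusted p under 0.05, which 6.65% of all probe sets had, 3 Irx probe sets were counted, those of Irx2, Irx3 and Irx5. Both knockout arrays were below both wild-type arrays for 4 Irx probe sets, a pattern of 18.6% of all probe sets. Differences were below 0 for 5 of the 6, against 50.7% of all probe sets. Because the choice of the family used this contrast, nothing is read from these counts.

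Averaged over its 3 genes, the chromosome 8 cluster had log2 values of 6.06 and 6.14 in knockouts, against 6.59 and 6.54 in wild types, a difference of -0.47. The chromosome 13 cluster had 5.80 and 5.69 in knockouts, against 5.86 and 5.95 in wild types, a difference of -0.16. Within an array the chromosome 8 mean exceeded the chromosome 13 mean by 0.26 and 0.45 in knockouts, against 0.73 and 0.59 in wild types. The knockout mean of this excess was 0.36 ± 0.133 and the wild-type mean 0.66 ± 0.105 (SD, n = 2 arrays each), a difference of -0.30. The gap of 0.14 between the genotypes was smaller than the range of 0.19 between the knockout arrays. A permutation of 2 against 2 arrays cannot give a two-sided exact p below 0.333, and none was computed for this contrast.

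The cluster means hide an uneven split. In each cluster the dim member, Irx6 or Irx4, differed by 0.06 or less in size, so the cluster difference came from Irx3 and Irx5 against Irx1 and Irx2. With the dim members left out, Irx3 and Irx5 averaged 7.02 and 7.11 in knockouts, against 7.84 and 7.72 in wild types, a difference of -0.71. Irx1 and Irx2 averaged 6.61 and 6.53 in knockouts, against 6.76 and 6.82 in wild types, a difference of -0.21. Within the chromosome 8 pair, the excess of Irx3 over Irx5 was 0.58 and 0.54 in knockouts, against 0.74 and 0.82 in wild types and so was lower on both knockout arrays.

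The hair follicle signal was used to pair like arrays. It was high on knockout 1 and wild type 2 and low on knockout 2 and wild type 1. On the low arrays the list means, 4.67 and 4.68, were still above the mark of 4.52. Between the arrays with high hair signal Irx3 differed by -0.83 (knockout 1 minus wild type 2). Between those with low signal it differed by -0.82 (knockout 2 minus wild type 1). Irx5 differed by -0.58 at high hair signal and -0.63 at low, and Irx2 by -0.36 and -0.27. Each of these values sets 1 array against 1, and the part of the hair follicle in the Irx differences was not tested. Irx1 had -0.05 at high hair signal and -0.18 at low. Irx2 was higher on the array with high hair signal in each genotype, by 0.15 in knockouts and 0.24 in wild types. Irx4 was so too, by 0.16 in knockouts and 0.15 in wild types, at a level below the mark for dim signal. Irx3 ran the other way, at -0.08 in each genotype, as did Irx5, at -0.11 in knockouts and -0.16 in wild types. Irx1 and Irx6 differed in sign between the genotypes.

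The genes around each cluster were examined from RefSeq gene order. Of the 28 RefSeq genes between the chromosome 8 members or among the 10 nearest on each side, 7 had a probe set, 12 probe sets in all. By limma 0 of these 12 passed, 2 had an unadjusted p under 0.05 (6.65% of all probe sets), 9 were below 0 and the median was -0.06, against -0.001 over all probe sets. Crnde, a long noncoding RNA gene whose human counterpart is transcribed divergently from IRX5, had log2 values of 4.76 and 5.17 in knockouts, against 5.55 and 5.60 in wild types. The genotypes of Crnde did not overlap, and its difference was -0.61 (SE 0.143; limma adjusted p = 0.705).

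Next to the cluster on either side, Fto and Mmp2 lay near 0, while Lpcat2, beyond Mmp2, did not. Fto, an RNA demethylase gene whose introns hold long-range enhancers of Irx3 in mouse and human, had 8.74 and 8.78 in knockouts, against 8.78 and 8.91 in wild types, a difference of -0.09 (SE 0.078). Its dimmer probe set had 0.01. Mmp2, a gelatinase gene next to Irx6, had a difference of -0.02 (SE 0.070). Lpcat2, a lysophosphatidylcholine acyltransferase gene beyond Mmp2 that was singled out after its values were seen, had 5.77 and 5.48 in knockouts, against 6.17 and 6.28 in wild types. Its difference was -0.60 (SE 0.114; limma adjusted p = 0.687), and its dimmer probe set had -0.13. The remaining neighbours there, Capns2, Slc6a2 and Ces1c, had differences of -0.15, 0.07 and -0.16 at their brightest probe sets, and the arrays of Ces1c did not overlap, at dim signal.

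With the 10 nearest measured genes on each side, a wider choice made after the data were seen, the chromosome 8 locus had 21 genes and 33 probe sets, 19 below 0 and 14 above, with a median of -0.02, and 0 passed by limma while 6 had an unadjusted p under 0.05, against 6.65% of all probe sets. Tox3, an HMG-box factor gene, lay higher in knockouts at 5.53 and 5.61, against 4.85 and 5.07 in wild types (0.61, SE 0.097; limma adjusted p = 0.653). Ces1f, a carboxylesterase gene, lay lower at 10.29 and 10.43 in knockouts, against 10.77 and 10.80 in wild types (-0.43, SE 0.079; limma adjusted p = 0.673). Genes of one sequence family, such as the Ces1 carboxylesterases, may share probes. Nkd1, a Wnt inhibitor gene, had 0.39 at its brightest probe set, where both knockout arrays were above both wild-type arrays, and 0.05 to 0.07 at its 3 others. Aktip, Rbl2 and Chd9, between Tox3 and Fto, had differences of 0.21, -0.09 and 0.20 at their brightest probe sets and -0.14, 0.07 and -0.21 at their dimmer ones. Nkd1 and these 3 genes were also picked with their values in view. The locus therefore held values on both sides of 0. Mmp15 lies on the same chromosome, with 45 measured genes between it and Irx3, 43 between it and Irx5 and 42 between it and Irx6. In this design the genotype at Mmp15 and at linked positions of the chromosome cannot be told apart.

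Around the chromosome 13 cluster, 12 of 32 RefSeq genes had a probe set, 17 probe sets in all. By limma 0 passed and 0 had an unadjusted p under 0.05, against 6.65% of all probe sets. Of the 17, 7 were below 0 and 10 above, with a median of 0.03. The range ran from -0.12, at a dim probe set of Lpcat1, to 0.18 (Mrpl36). The brightest probe set of Lpcat1 had -0.02. The measured gene next to Irx4, Ndufs6, a subunit gene of respiratory complex I, had a difference of 0.15 (SE 0.091). On the other side, next to Irx1, the transcript 8030423J24Rik had -0.08 at dim signal. No neighbour there differed as much as Irx2.

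**Figure D2:**
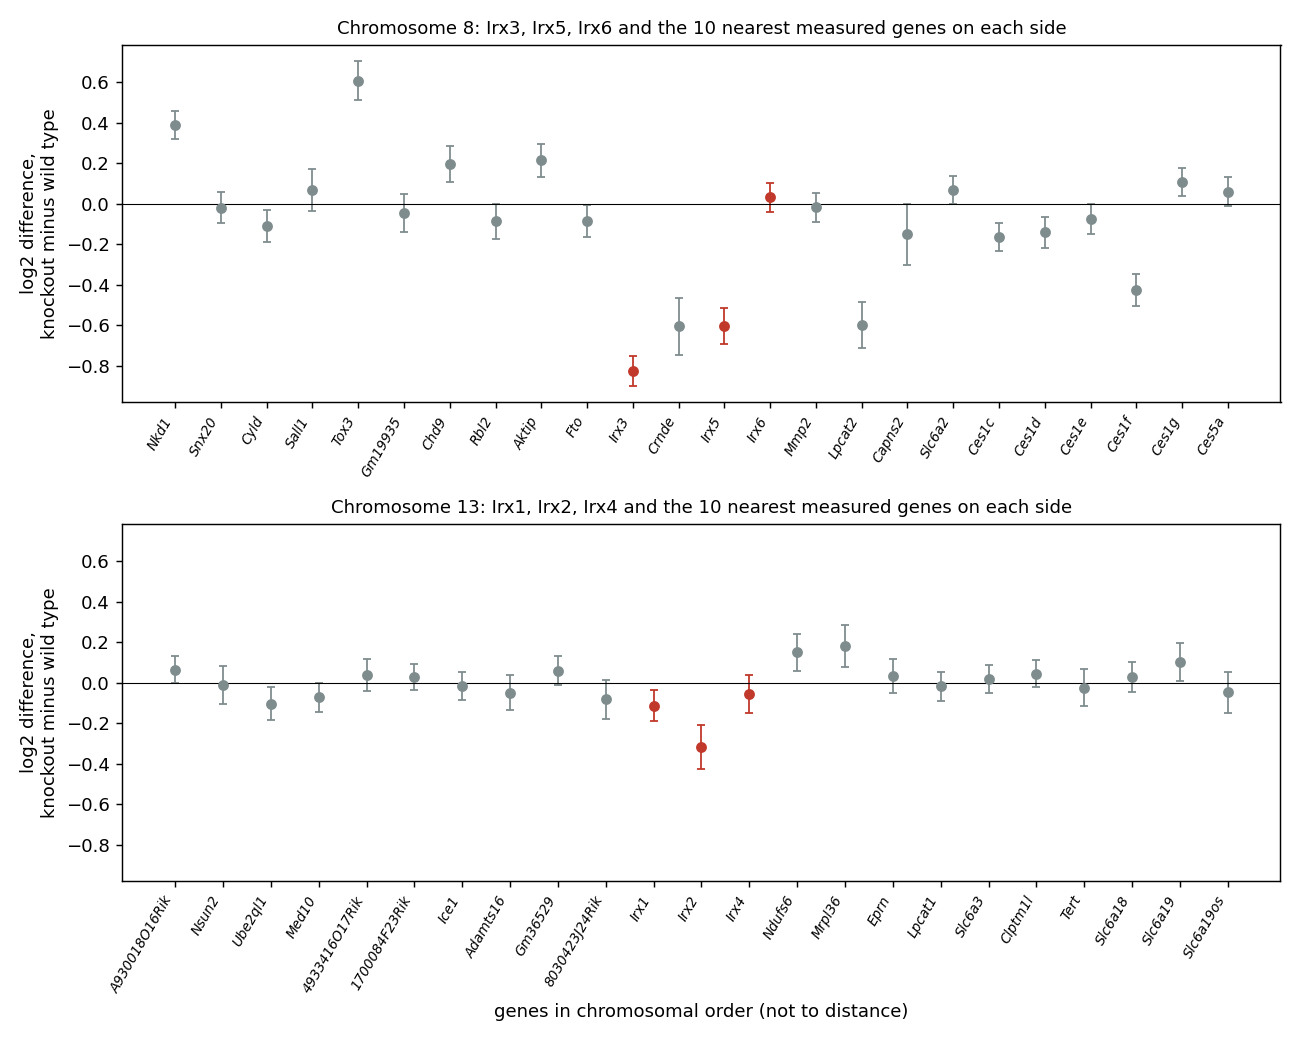
Log2 difference, knockout minus wild type, with the fit's standard error (bars) for the Iroquois genes (red) and the 10 nearest measured genes on each side (grey; brightest probe set of each gene), in chromosomal order and not to distance. On chromosome 8, Irx3 (-0.82), Crnde (-0.61), Irx5 (-0.60) and Lpcat2 (-0.60) lie lowest, while Fto, Irx6 and Mmp2 lie near 0 and Tox3 at 0.61. On chromosome 13 the neighbours run from -0.10 (Ube2ql1) to 0.18 (Mrpl36).

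Other factors of the TALE class lay on both sides of 0. Of 11 measured members outside the Iroquois family, 5 were below 0 and 6 above, with a median of 0.02. Over all 17097 genes 51.2% were below 0 and the median was -0.002. By limma 0 of the 11 passed, against 0.00585% of all genes, and 0 had an unadjusted p under 0.05, against 7.36% of all genes. Tgif1, a corepressor of TGF-beta signalling, was lowest at -0.15, followed by Pbx3, a Hox cofactor, at -0.14. Meis3, another Hox cofactor, was highest at 0.13, followed by Mkx, a tendon factor, at 0.09 and dim signal.

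Genes placed upstream of Iroquois factors, or known as their partners and targets, formed another list of 11 measured genes, with 7 below 0, 4 above and a median of -0.09. By limma 0 passed and 0 had an unadjusted p under 0.05, against 7.36% of all genes. Gata3, a luminal epithelial factor whose product binds human IRX5, was lowest at -0.28 (SE 0.172), with 7.06 and 6.58 in knockouts, against a mean of 7.10 in wild types, and the arrays of the genotypes overlapped. Trps1, another such partner, had -0.15. Gja1, the connexin 43 gene, was highest at 0.28 (SE 0.214), with 10.96 and 10.45 in knockouts, against 10.21 and 10.65 in wild types. Lfng, a Notch modifier whose Drosophila counterpart fringe is repressed by an Iroquois factor, had 0.07. None of the 11 had a difference as large as that of Irx2.

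Thermogenic adipocyte genes, listed as cell type markers and not as targets of IRX3 or IRX5, had list means of 9.19 and 8.73 in knockouts. The wild-type list means were 8.25 and 8.27. The median difference was 0.76, with 11 of 11 measured members above 0, while 51.2% of all genes were below 0. By limma 0 passed, while 8 had an unadjusted p under 0.05, against 7.36% of all genes. The ends of the list were Ucp1, the uncoupling protein gene (1.64), and Fabp3, a fatty acid carrier gene (1.11), against Ebf2 (0.05) and Elovl3 (0.04). The relation of these genes to the Irx differences was not tested. White adipocyte markers were split, with 4 of 9 below 0 and a median of 0.02 (0 passed by limma, 3 with an unadjusted p under 0.05), and ran from Retn (-0.25) and Pparg (-0.10) to Plin4 (0.36) and the leptin gene Lep (2.19).

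The median differences of the epithelial lists were below 0, as were the differences of Irx3, Irx5 and Irx2, while 51.2% of all genes were below 0. A list median and a single gene are unlike measures, so their sizes are not compared. Among single members, Trp63 (-0.85) alone lay beyond Irx3 (-0.82). Trp63 had log2 values of 6.14 and 5.12 in knockouts, against 6.14 and 6.82 in wild types. Knockout 1 and wild type 1 were thus alike, and within each genotype Trp63 was higher on the array with high hair signal. In a whole gland, fewer cells of a type and less RNA per cell cannot be told apart. Luminal markers had list means of 7.66 and 7.52 in knockouts, against 7.78 and 7.78 in wild types, with 13 of 14 below 0 and a median of -0.18. The lowest were Foxa1, a pioneer factor gene (-0.39), and Krt8, a luminal keratin gene (-0.33), and the highest Cldn7 (-0.08) and Esr1 (0.01). Basal markers had 7.93 and 7.82 in knockouts, against 8.08 and 8.12 in wild types, with 11 of 11 below 0 and a median of -0.19. They ran from Trp63 (-0.85, SE 0.376), the p63 gene, and Oxtr (-0.36) to Itgb4 (-0.03) and Itga6 (-0.01). By limma 0 members of either list passed, and 4 luminal and 3 basal members had an unadjusted p under 0.05, against 7.36% of all genes. The part of these cells in the Irx differences was not tested.

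The other marker lists had medians of 0.16 or less in size. Fibroblast markers had list means of 10.03 and 10.15 in knockouts, against 10.05 and 9.97 in wild types (8 of 10 above 0, median 0.10). They ran from Pdgfra (-0.18) and Col1a2 (-0.08) to Mfap5 (0.20) and Pi16 (0.30). Endothelial markers had 9.13 and 9.32 in knockouts, against 9.10 and 9.02 in wild types (9 of 10 above 0, median 0.16), from Kdr (-0.01) and Egfl7 (0.07) to Tek (0.18) and Tie1 (0.50). Macrophage markers had 8.73 and 8.91 in knockouts, against 8.95 and 8.91 in wild types (10 of 10 below 0, median -0.06), from Mpeg1 (-0.39) and Ctss (-0.27) to Cd163 (-0.04) and Adgre1 (-0.03). In these 3 lists 0 members passed by limma, and 2, 1 and 2 had an unadjusted p under 0.05, against 7.36% of all genes. Of all genes, 51.2% were below 0.

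Skeletal muscle markers stood apart on knockout 2, at 5.02 and 5.75 in knockouts, against 5.22 and 5.06 in wild types (11 of 12 above 0), led by Acta1 (0.80) and Myh4 (0.69), with Mb (-0.12) and Myh2 (0.03) lowest and 4 of 12 below the mark for dim signal. The part of muscle in the Irx differences was not tested. Lymphocyte markers had a median of -0.04 (6 of 9 below 0), from Ptprc (-0.21) and Cd3e (-0.10) to Cd79b (0.50) and Ms4a1 (0.76), and Schwann cell markers 0.02 (3 of 5 above 0), from Pmp22 (-0.05) and Sox10 (-0.01) to Ngfr (0.06) and S100b (0.49). Epidermis and hair follicle markers had a median of 0.06 (14 of 19 above 0), from Krt25 (-0.16) and Trps1 (-0.15), also in the partner list, to Krt34 (0.39) and Krt71 (0.41). In these 4 lists 0 members passed by limma. An unadjusted p under 0.05 was seen for 0 muscle, 2 lymphocyte, 1 Schwann cell and 0 hair markers, against 7.36% of all genes. Genes of retina, lens and sperm, a check on unspecific signal, had a median of 0.001 (7 of 14 below 0), with 12 of 14 below the mark. They ran from Pde6b (-0.11) and Rbp3 (-0.08) to Gnat1 (0.13) and Tnp2 (0.15). The 3 measured Y-linked genes, Kdm5d (-0.13), Eif2s3y (-0.005) and Uty (0.03), were all below the mark on every array. Their list means were 3.58 and 3.60 in knockouts, against 3.64 and 3.62 in wild types. No Y-linked RNA was thus seen above the mark.

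**Figure D3:**
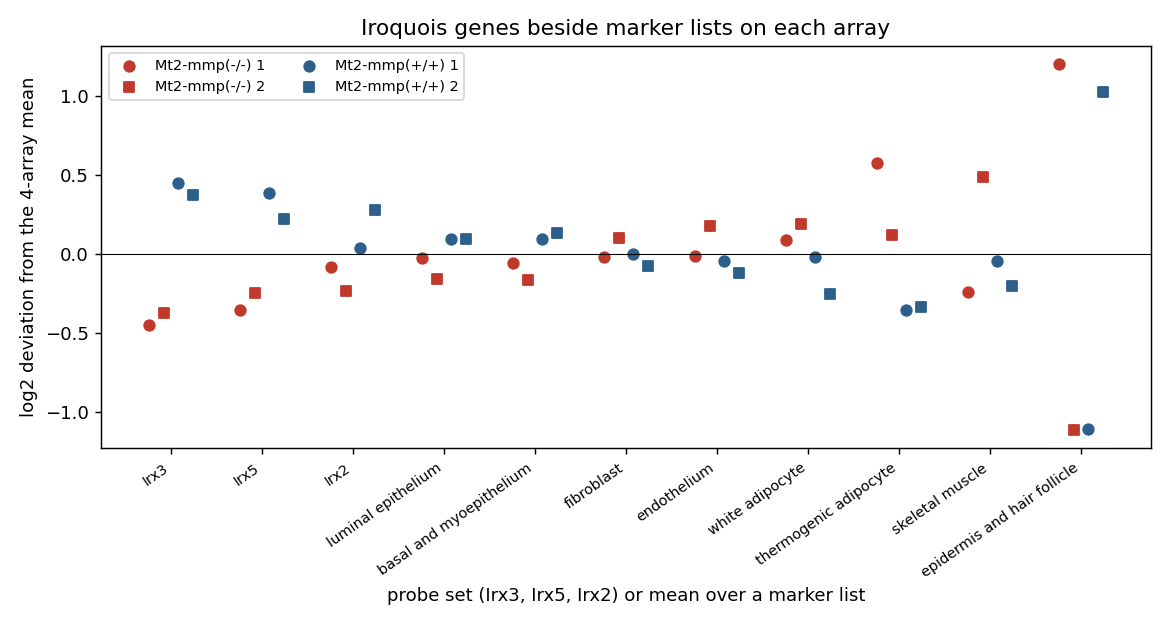
Deviation of each array from the 4-array mean, on the log2 scale, for Irx3, Irx5 and Irx2 and for the mean of 8 marker lists, with knockouts in red, wild types in blue, circles for replicate 1 and squares for replicate 2. Irx3 and Irx5 separate the genotypes, and the luminal and basal lists, as means over many genes, do so over a narrower range. The thermogenic list runs the opposite way, and hair follicle markers split each genotype.

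The genes whose pattern over the 4 arrays was closest to that of Irx3 were found by Euclidean distance between log2 deviations from each gene's own mean, over 17096 other genes. The nearest 5 outside the family were Ldb3, a muscle Z-disc protein gene (distance 0.073), Stfa2l1, a stefin family gene (0.155), Apoc2, which encodes an activator of lipoprotein lipase (0.192), Hpd, a tyrosine breakdown enzyme gene (0.226), and Mgst2, a microsomal glutathione transferase gene (0.229). Irx5 came next, at rank 6 with a distance of 0.230. None of the 5 others lies on chromosome 8 or 13, and their differences ran from -0.84 (Ldb3) to -0.70 (Hpd). The other family members were farther away, with Irx2 at rank 333, Irx1 at 2068, Irx4 at 6073 and Irx6 at 10316. Since the distance uses the same 4 arrays as the difference, a gene of like difference and small spread is near by construction.

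**Figure D4:**
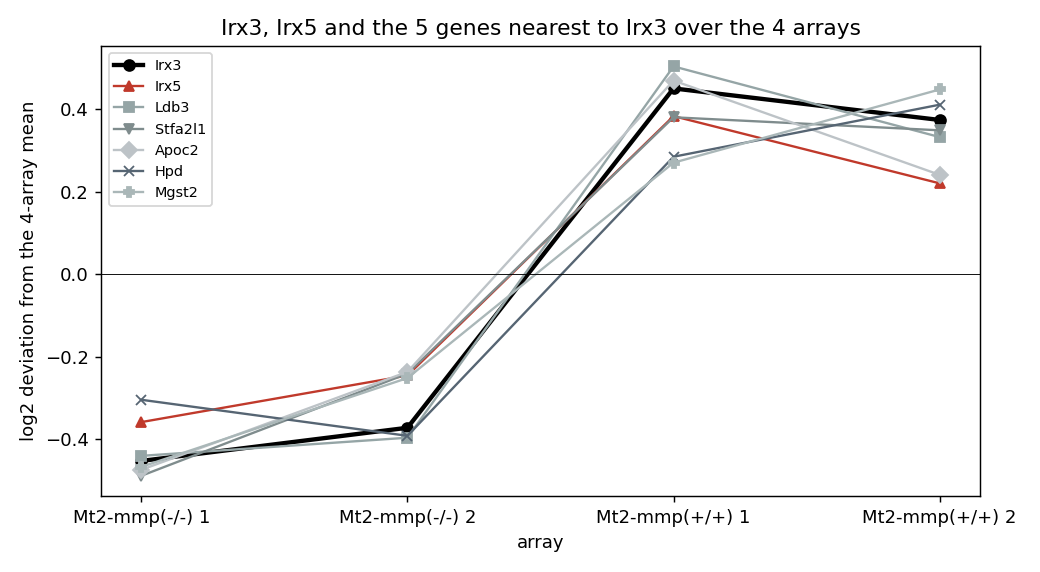
Log2 deviation from the 4-array mean (vertical axis) on each array for Irx3 (black), Irx5 (red) and the 5 genes nearest to Irx3 (grey tones). All lie below 0 on both knockout arrays and above 0 on both wild-type arrays, and Irx5 spans a narrower range (-0.60) than Irx3 (-0.82).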

How the data were processed

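The authors deposited log2 values, 1 per probe set and array, computed by RMA (package affy), as the submitters' processing notes name them. No version or setting is named there. RMA forces all arrays to the same intensity distribution and compresses differences of dim genes.

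The 104 control probe sets were set aside, and knockout was compared with wild type on the other 45037 by a two-sided limma test (version 3.58.1, lmFit then eBayes, under R 4.3.3) with 2 residual and 3.43 prior degrees of freedom and Benjamini-Hochberg adjustment. The SE is that of this fit, and its median over probe sets was 0.081. The number of arrays limits the precision. A run on simulated data checked only the mean size of planted differences, and the share of them that passed is not given here. Platform annotation gave 1 symbol to 28898 probe sets (17097 genes), of which 99.3% matched GRCm38.p6 RefSeq gene IDs and 0 symbols differed. Gene lists used the brightest probe set of each gene.

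Named were every Irx probe set, the measured genes next to an Irx gene, neighbours with all probe sets beyond 0.3 in size, the 2 lowest and 2 highest members of each list, and the 5 genes nearest to Irx3. Any other neighbour in the text, such as Lpcat2, was picked after its values were seen. The members and lists were chosen with earlier results of these data known. Same-numbered arrays were checked for pairing: their deviations from the genotype means correlated at -0.295, and the main fit used no pairs. The hair follicle signal ran opposite ways in same-numbered arrays, so this value cannot exclude a pairing. Alternatives varied normalization, brightness filter, gene-level values, variance model, replicate block and single arrays.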

Additional observations from a re-analysis of the deposited data

How the results depend on the processing

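Quantile normalization and median centring moved the 6 Irx differences, both cluster means and the cluster difference by less than the spread between replicates. The brightness filter, gene-level values, variance models and replicate blocks cannot change these differences in a balanced design with 1 probe set per Irx gene. Leaving out 1 of 2 arrays cannot move a difference beyond that spread, so the ranges that follow are a description. Leaving out 1 array at a time, Irx3 ran from -0.87 to -0.78, Irx5 from -0.69 to -0.52, Irx2 from -0.44 to -0.19, Irx1 from -0.17 to -0.05, Irx4 from -0.14 to 0.02 and Irx6 from -0.005 to 0.07, so Irx4 and Irx6 took both signs. The cluster difference ran from -0.40 to -0.21. Keeping only probe sets with a mean of at least 5 left out Irx4 and Irx6, so the cluster values could not be given there.

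The number of probe sets passing over the whole array, 2 in the fit reported, was 5 with quantile normalization, median centring, the brightness filter, an intensity trend or robust variances. It was 1 with the brightest probe set of each gene and 0 with probe sets averaged per gene (1185 genes at an unadjusted p under 0.05 by limma). With the replicate number as a block it was 0 (3131 at an unadjusted p under 0.05), and 0 with the crossed pairing of knockout 1 with wild type 2, chosen after seeing the data (2558). With 1 array left out it ran from 0 to 5, being 5 without wild type 1 and 0 without each of the other 3 arrays. The cause was not tested. No Irx probe set and no neighbour was called in any of these fits. The median of the chromosome 8 neighbours, -0.06 over probe sets, was -0.151 with the brightest probe set or the mean of each gene's probe sets (12 probe sets against 7 genes), and -0.10 to -0.01 with 1 array left out. With 2 arrays per genotype, differences of the size of Irx1 are within reach of a single array.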
